A study of Mus musculus with 34 samples.

Results

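Recovery of the colon after the third of 3 weekly rectal instillations of TNBS, a hapten that causes colitis, was described by comparing mice 7 days after it with mice 2 days after it. The comparison holds 10 of the 34 arrays of the series, 5 labelled day 28 and 5 labelled day 23, and all probes with a signal above a linear value of 5 in at least 4 of the 34 arrays, which were 21110 of 25697. All 10 mice were female BALB/c mice sensitized with TNBS on the skin and then given TNBS in ethanol per rectum on 3 occasions, in rising doses, so the days differ only in the time since the third and highest dose and in the age of the mice, which cannot be told apart. The 4 healthy control mice, described by the labels only as healthy, had their colon measured on the same kind of array. RNA of the distal colon, a mixture of epithelium, immune cells, stroma and muscle, was hybridised to 1-colour Illumina bead arrays, 1 array per mouse. The other groups are 5 mice each of days 14 and 9, 7 and 2 days after the first instillation, and of days 21 and 16, 7 and 2 days after the second.

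TNBS in ethanol breaks the epithelial barrier and makes host proteins immunogenic. The acute phase of such an injury brings neutrophils and monocytes into the mucosa and induces acute phase proteins, chemokines and matrix-degrading enzymes. In the days that follow, neutrophils are cleared, macrophages take up debris and produce arginase and chitinase-like proteins, and fibroblasts, vessels and epithelium rebuild the wall.

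Signals are log2 values as normalized by the authors, and the lowest possible value here is 2.32, the floor of 5 on the linear scale. Background was set per array from 1326 probes for chemosensory receptors, which colon is assumed not to express, at their 95th percentile (22.3 to 30.4 on the linear scale). Of all probes, 48.9% to 52.3% exceeded it on each of the 10 arrays. Differences are given on the log2 scale as day 28 minus day 23 with the standard error (SE) of the fit, and a probe was called where its p-value from limma, adjusted over all probes by Benjamini and Hochberg, was under 0.05. The mean signal of 7 colon identity genes lay between 11.5 and 11.9 on all 10 arrays. Some day 23 arrays stood apart from the rest. In mouse 1 of day 23 the mean of 16 B and plasma cell genes was 4.05, against 6.64 to 6.89 in the other mice of that day, and the mean of 11 genes of MHC class II was 5.49, against 8.2 to 9.67. In mice 1 and 3 of day 23 the mean of 16 genes of small intestine and pancreas was 7.76 and 10.28, against 4.24 to 4.68 in the other 3. On day 28 this mean was 4.47 to 5.08. Counts of calls and list values without these mice are therefore given beside many of the results. The arrays of day 28 correlated with each other at r of 0.943 to 0.948 across probes and those of day 23 at 0.929 to 0.946, while arrays of different days correlated at 0.925 to 0.945.

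On day 28, 76 probes (0.36% of those tested) were higher than on day 23 and 232 (1.1%) were lower. With the brightest probe standing for each of 14010 genes, 55 genes (0.393%) were higher and 178 (1.27%) lower. In 40 of the 55 higher genes and 150 of the 178 lower genes, all 5 mice of day 28 lay beyond all 5 mice of day 23, a separation that the call favours and that 170 (1.21%) and 302 (2.16%) of all 14010 genes showed upward and downward. The median change was 1.67-fold among the higher genes and 2.13-fold among the lower genes, and 20 of the higher and 101 of the lower genes changed at least 2-fold. The median over all genes was 0.02 on the log2 scale. When mouse 1 of day 23 was left out, 32 of the 55 higher and 124 of the 178 lower genes kept their call, and without mice 1 and 3, 14 and 89 did. Of the 67 called genes named by rule, 21 lost their call without mouse 1 (adjusted p of 0.054 to 0.14), namely S100a8, Saa3, Il11, F10, Osm, Mmp9, Hmox1, Vegfd, Il33, Tnc, Col1a1, Cxcl14, Dmbt1, Cp, Col4a1, Gpx2, Ramp1, Tppp3, Upp1, Defa26 and Cxcl10. A further 14 lost it only without both mice (adjusted p of 0.052 to 0.19), namely Reg3b, S100a9, Chil3, Has2, Ccl11, Eng, Ednrb, Col4a2, Fads2, Irf7, H2-T23, Ccl28, Oas1a and Defa20. In bulk tissue, fewer cells of a type and less RNA per cell cannot be told apart.

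The largest falls were in Reg3b, a gene of epithelial defence, and in genes listed for neutrophils, the acute phase and macrophages. Reg3b, a secreted lectin that gut epithelium makes against bacteria, had signals of 2.32, 2.32, 2.32, 3.98 and 2.32 in the day 28 mice, against 14.41, 6.57, 13.40, 6.42 and 7.54 in the day 23 mice. The 2 highest values were in mice 1 and 3 of day 23, whose arrays also held pancreatic enzyme genes. The other mice of that day had 6.42 to 7.54, against 2.32 to 5.94 in healthy mice. Reg3b was above background in 0 day 28 mice and 5 day 23 mice. With mice 1 and 3 included, its mean level was at least 30.3-fold lower on day 28 (log2 difference -7.01, SE 1.37, adjusted p = 0.0046). Without mice 1 and 3 of day 23 the difference was -4.19 (adjusted p = 0.096). A second, dimmer probe of Reg3b gave -2.20 (adjusted p = 0.17). Here and below, a bound of this kind sets the mean of the brighter day against the higher of the background and the measured signal on each array of the dimmer day.

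The subunits of calprotectin, S100a8 and S100a9, which neutrophils carry in large amounts, fell together. S100a8 signals were 5.33, 2.93, 3.13, 3.24 and 3.98 on day 28, against 13.47, 7.07, 9.94, 7.69 and 11.14 on day 23. S100a9 signals were 4.62, 2.83, 3.38, 2.32 and 4.25 on day 28, against 12.29, 6.41, 9.57, 7.79 and 10.69 on day 23. Both genes were lower in every day 28 mouse than in every day 23 mouse, and the day 23 mice ranked in the same order for both. S100a8 differed by -6.14 (SE 1.47, adjusted p = 0.028), and S100a9 was at least 24.4-fold lower (-5.87, SE 1.30, adjusted p = 0.015). Of 16 neutrophil genes, 3 were called lower and 0 higher, namely these and Mmp9, a gelatinase of neutrophil granules (-1.85, adjusted p = 0.034). The median of the list was -1.41, and 15 of the 16 had a negative difference, beside 6400 of all 14010 genes. Csf3r, Cxcr2 and the other 11 did not pass. The mean signal of the list was 3.87 to 4.37 on day 28, 4.68 to 7.51 on day 23 and 3.55 to 4.54 in healthy mice, with mouse 1 the highest of day 23. Without mouse 1 the list had 1 lower gene and a median of -1.15, and without mice 1 and 3 it had 0 and -0.85.

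Acute phase genes fell as well. Haptoglobin (Hp), which binds free haemoglobin, had signals of 2.32, 2.32, 2.32, 3.59 and 4.13 on day 28, against 10.82, 7.27, 9.96, 8.05 and 8.97 on day 23 (-6.08, SE 0.93, adjusted p = 4e-04). This probe was above background in 0 day 28 mice, so that by it Hp was at least 19.3-fold lower, while a dimmer probe, above background in 2 day 28 mice, gave -3.36. The groups were far apart, and the difference was called also without mice 1 and 3 (-5.16, adjusted p = 0.011). Serpina3n, a protease inhibitor, had 9.79, 8.67, 9.16, 8.90 and 9.20 on day 28, against 13.38, 10.98, 11.47, 10.73 and 11.46 on day 23 (-2.46, SE 0.39, adjusted p = 6.4e-04). Saa3, a serum amyloid made in the gut wall, fell by 3.92 (adjusted p = 0.048) and ceruloplasmin (Cp), a copper-carrying ferroxidase, by 0.74 (adjusted p = 0.036). These 4 of 15 acute phase genes were lower and 0 higher, with a median of -1.21. Lcn2, a neutrophil and epithelial protein that binds bacterial siderophores, had 2.70 to 5.54 on day 28, against 4.56 to 13.05 on day 23, and did not pass (-4.27, adjusted p = 0.096). Its groups overlapped and its highest day 23 value was that of mouse 1. Lrg1, a plasma glycoprotein that is not on the list, fell by 2.92 (adjusted p = 0.0034). Without mouse 1 of day 23, 2 of the list were called, and without mice 1 and 3 also 2.

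**Figure D1:**
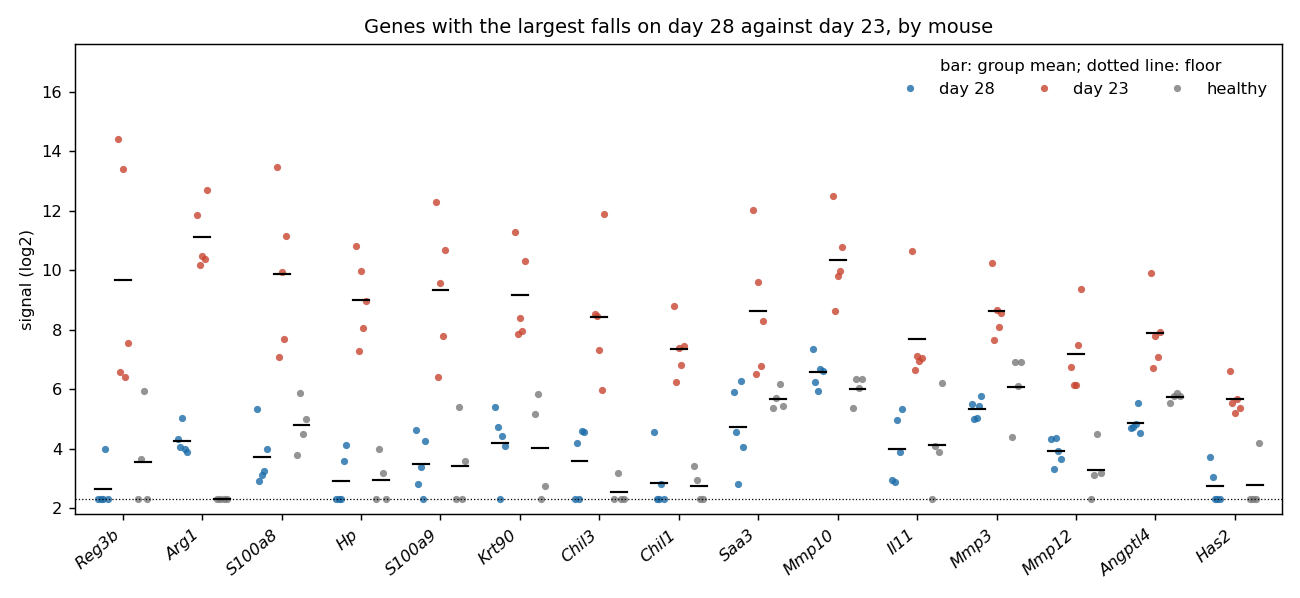
Signal (log2) of the 15 genes with the largest falls among called genes whose days did not overlap and that were above background in every day 23 mouse, 1 point per mouse, with day 28 in blue, day 23 in red and healthy mice in grey, bars at the group means and a dotted line at the floor. By that choice all 5 day 28 points lie below all 5 day 23 points, and Arg1 is at the floor of 2.32 in all 4 healthy mice.

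Genes of arginine metabolism and of the alternative activation of macrophages, the state linked to repair and type 2 responses, were lower on day 28. Which cells of the tissue expressed them was not measured. Arginase 1 (Arg1) had signals of 4.32, 4.06, 5.04, 3.99 and 3.90 on day 28, against 11.86, 10.18, 10.48, 10.38 and 12.69 on day 23. No day 28 mouse came within 5 log2 units of the lowest day 23 mouse, and the difference was -6.86 (SE 0.87, adjusted p = 3.6e-05). The chitinase-like gene Chil3 (Ym1), with 2.32, 4.18, 2.32, 4.61 and 4.55 on day 28, against 8.53, 8.47, 7.33, 5.99 and 11.89 on day 23, was at least 13-fold lower (-4.84, SE 1.14, adjusted p = 0.025). It was highest in mouse 5 of day 23 rather than in mouse 1, and its other probes gave -2.58 (adjusted p = 0.2) and -6.09 (adjusted p = 0.0012). Chil1, the mouse gene of the chitinase-like protein YKL-40, had 4.56, 2.32, 2.32, 2.82 and 2.32 on day 28, against 8.79, 6.25, 7.40, 6.81 and 7.47 on day 23, and was at least 6.05-fold lower (-4.47, SE 0.66, adjusted p = 3.6e-04). The lectin gene Clec10a fell by 2.08 (adjusted p = 0.0041), the haemoglobin scavenger receptor Cd163 by 1.97 (adjusted p = 0.0051) and the mannose receptor Mrc1 by 1.36 (adjusted p = 0.0077). Of 13 genes of this list 6 were lower and 0 higher, with a median of -1.36. Without mouse 1 of day 23 the median was -1.61 with 6 called, and without mice 1 and 3 it was -1.74 with 4 called. Of 12 general monocyte and macrophage genes, 0 were called and the median was -0.34. Without mouse 1 of day 23, 1 was called lower, C1qb, a chain of complement C1q (-0.84, adjusted p = 0.033), and the median was -0.59, and without mice 1 and 3 the values were 0 and -0.66. Trem2, a lipid receptor of macrophages outside these lists, was 4.42 to 5.14 on day 28, against 6.44 to 7.73 on day 23 (-2.20, adjusted p = 3.8e-04).

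Chemokines moved in both directions. Of 19 inflammatory chemokines, 4 were lower, 1 (Cxcl10) was higher and the median was -1.74. With mouse 1 of day 23 left out, 4 were lower and 0 higher, and with mice 1 and 3 left out, 3 and 0. Ccl9, which attracts monocytes and dendritic cells, had 9.12, 8.85, 9.28, 9.00 and 9.18 on day 28, against 11.32, 10.93, 11.20, 10.61 and 12.03 on day 23 (-2.13, SE 0.27, adjusted p = 3.6e-05). The values within each day were close and the days did not overlap. Platelet factor 4 (Pf4, Cxcl4) fell by 2.39 (adjusted p = 5e-04), the monocyte attractant Ccl7 by 1.92 (adjusted p = 0.044) and eotaxin (Ccl11), which attracts eosinophils, by 1.56 (adjusted p = 0.0074). The neutrophil attractant Cxcl1 was 6.01 to 6.38 on day 28, against 7.17 to 9.18 on day 23, and did not pass (-1.76, adjusted p = 0.21), nor did the monocyte attractant Ccl2 (-1.89, adjusted p = 0.23). Among 12 homeostatic chemokines, Cxcl14 was lower (-0.89, adjusted p = 0.048) and Ccl28, an epithelial chemokine that attracts IgA-producing plasma cells, was higher. Ccl28 had 7.57, 7.79, 7.63, 7.61 and 7.05 on day 28, against 5.21, 6.38, 6.32, 6.76 and 6.48 on day 23 (1.30, SE 0.25, adjusted p = 0.0045). Its day 28 signals overlapped the healthy range of 7.31 to 8.10. Of the 2 calls on this list, 1 was kept without mouse 1 of day 23 and 0 without mice 1 and 3.

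Of 24 cytokine and receptor genes, 6 were lower and 0 higher, and the median was -0.55. Members of the interleukin 6 family and their signalling genes were among those that fell. Il11, which stromal cells make on injury, had 2.95, 2.87, 4.96, 3.91 and 5.35 on day 28, against 10.65, 6.65, 7.12, 6.95 and 7.05 on day 23 (-3.68, SE 0.84, adjusted p = 0.02). Oncostatin M (Osm), a leukocyte cytokine of the same family, fell by 2.59 (adjusted p = 0.047), its receptor Osmr by 0.89 (adjusted p = 0.0027) and Socs3, the feedback inhibitor of this signalling, by 1.91 (adjusted p = 0.0025). Mouse 1 of day 23 stood far above its group for Il11, and without it the difference was -2.93 (adjusted p = 0.061). A dimmer probe of Osm gave 0.37 (adjusted p = 0.91), above background in 1 of the 10 mice. Il33, an alarmin stored in the nuclei of stromal and epithelial cells, fell by 1.39 (adjusted p = 0.031) and Tgfb1, a cytokine of repair and fibrosis, by 0.97 (adjusted p = 0.026). Il1b was 7 to 7.83 on day 28, against 8.26 to 9.76 on day 23, and Tnf 3.50 to 5.40 against 4.20 to 6.48. Neither passed, at -1.57 (adjusted p = 0.29) and -1.05 (adjusted p = 0.62). The groups did not overlap for Il1b and did for Tnf. Il6 was above background in 0 day 28 mice and 1 day 23 mouse. This list had 3 calls without mouse 1 of day 23, and 2 without mice 1 and 3.

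The enzymes that cut matrix formed the list with the highest share of calls of all 44, 10 lower and 0 higher of 17 genes, with a median of -1.31. Stromelysin 1 (Mmp3), which degrades proteoglycans and activates other metalloproteinases, had signals of 5.51, 5.00, 5.05, 5.43 and 5.77 on day 28, against 10.23, 7.64, 8.66, 8.08 and 8.57 on day 23 (-3.28, SE 0.45, adjusted p = 1.3e-04). Stromelysin 2 (Mmp10), made by epithelium at wound edges, had 7.35, 6.24, 5.95, 6.69 and 6.62 on day 28, against 12.51, 8.62, 9.79, 9.97 and 10.78 on day 23 (-3.77, SE 0.63, adjusted p = 0.0012). Macrophage elastase (Mmp12), with 4.34, 3.33, 4.38, 3.94 and 3.67 on day 28, against 6.74, 6.16, 6.14, 7.48 and 9.38 on day 23, was at least 5.41-fold lower (-3.25, SE 0.74, adjusted p = 0.018). In all 3 genes the days were apart, and the highest day 23 value belonged to mouse 1 for Mmp3 and Mmp10 and to mouse 5 for Mmp12. Timp1, the inhibitor of these enzymes, was lower as well (-2.78, SE 0.52, adjusted p = 0.0033), with 6.86 to 7.41 on day 28, against 8.93 to 11.75 on day 23. The collagenase Mmp13 fell by 2.08 (adjusted p = 0.049), the aggrecanase Adamts4 by 1.8 (adjusted p = 0.0079) and the membrane-bound Mmp14 by 0.53 (adjusted p = 0.031). Of the plasminogen system, urokinase (Plau) fell by 0.76 (adjusted p = 0.0028) and its receptor Plaur by 1.31 (adjusted p = 0.0051). Mmp9, also on the neutrophil list, was the tenth. The mean signal of the list was 6.69 to 6.93 on day 28, 7.94 to 8.98 on day 23 and 6.19 to 7.15 in healthy mice. Of the 10 calls, 7 held without mouse 1 of day 23 and 6 without mice 1 and 3.

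Since these genes moved together, their promoters were searched for the site of AP-1, the factor made of Fos and Jun proteins that wounding activates. The search was for TGANTCA, which reads the same on both strands, in windows of 250 bases before to 50 bases after the start of transcription (RefSeq, GRCm38.p6). It was in 2565 of all 32851 promoters (7.81%). Of the 17 genes, 12 had a promoter in the table and 5 had a match. All 5 were among the 10 called genes, of which 7 had a promoter, and none of the 5 genes with a promoter that were not called had a match. The 100 bases before the start are shown for these 5 genes, 5′ to 3′ on the strand of the gene, with the match in capitals, since these are the genes in which the fall and the sequence coincide. The match is a description of the letters and not of a bound site. Mmp3, Mmp10, Mmp12 and Mmp13 lie close together on chromosome 9, and Mmp12 has the match in the second of its promoters in the table. A gene was counted if any of its promoters matched, while the 7.81% is a share of promoters.
Mmp3 (chr9:7445722-7445821, plus strand): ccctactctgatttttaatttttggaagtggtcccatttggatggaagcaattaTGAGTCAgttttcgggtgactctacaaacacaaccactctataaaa
Mmp10 (chr9:7502242-7502341, plus strand): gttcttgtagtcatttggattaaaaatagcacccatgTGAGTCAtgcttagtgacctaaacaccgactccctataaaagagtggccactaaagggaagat
Mmp12 (chr9:7347274-7347373, plus strand): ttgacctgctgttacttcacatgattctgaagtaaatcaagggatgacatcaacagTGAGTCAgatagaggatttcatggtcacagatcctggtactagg
Mmp13 (chr9:7272414-7272513, plus strand): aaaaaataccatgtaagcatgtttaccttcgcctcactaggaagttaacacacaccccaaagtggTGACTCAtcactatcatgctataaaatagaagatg
Plaur (chr7:24462383-24462482, plus strand): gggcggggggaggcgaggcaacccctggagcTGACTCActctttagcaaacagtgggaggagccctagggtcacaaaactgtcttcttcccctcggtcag

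In these genes the match begins 46 bases before the start in Mmp3, 63 in Mmp10, 44 in Mmp12, 35 in Mmp13 and 69 in Plaur. The list of immediate early and AP-1 genes itself had 1 lower and 0 higher of 16, Ier3, an early gene of stress and cytokine signalling (-1.48, adjusted p = 0.009), and a median of 0.06.

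Of 26 structural matrix genes, 7 were lower and 0 higher, with a median of -0.43. Tenascin C (Tnc), a glycoprotein of healing wounds, had 9.19, 9.46, 9.04, 9.27 and 8.91 on day 28, against 11.55, 9.80, 10.22, 9.68 and 9.98 on day 23 (-1.07, SE 0.26, adjusted p = 0.028). Collagen I (Col1a1) fell by 0.92 (adjusted p = 0.047) and the basement membrane chains Col4a2 and Col4a1 by 0.79 (adjusted p = 0.014) and 0.74 (adjusted p = 0.02). Sparc, Dcn and Bgn fell by 0.73, 0.54 and 0.52. Has2, which makes hyaluronan, was at least 1.91-fold lower (-2.92, SE 0.64, adjusted p = 0.013). Without mouse 1 of day 23, 5 of the list were called, 4 of them among the 7, with a median of -0.49, and without mice 1 and 3, 0, with a median of -0.45. Among 22 genes of endothelium and vessel growth, 3 were lower, Vegfd, a lymphatic growth factor (-1.49, adjusted p = 0.031), the endothelial receptor Eng (-1, adjusted p = 0.014) and the endothelin receptor Ednrb (-0.95, adjusted p = 0.01), and the median was -0.46. Without mice 1 and 3, 0 of this list were called.

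Among other lists, coagulation factors F10, F13a1 and F7 were called lower. F13a1, the transglutaminase that cross-links fibrin, had 6.08, 6.34, 6.79, 6.76 and 7.05 on day 28, against 8.79, 8.56, 8.60, 7.99 and 7.98 on day 23 (-1.78, SE 0.29, adjusted p = 9.7e-04). F10 was at least 1.81-fold lower (-2.67, adjusted p = 0.045). F7 (-1.52, adjusted p = 0.028) was above background in 0 day 28 mice and 1 day 23 mouse, and its days overlapped. Antioxidant genes that fell were the haem oxygenase Hmox1 (-1.84, adjusted p = 0.036) and the glutathione peroxidases Gpx3 (-1.25, adjusted p = 0.0026) and Gpx2 (-0.69, adjusted p = 0.047), 3 of 23 with a median of -0.24. Of these 3, 1 kept its call without mouse 1 of day 23, when the median was -0.13. The 3 coagulation genes were among 14 of complement and coagulation, and 2 kept their call without mouse 1. The lipoxygenase Alox12 fell by 2.06 (adjusted p = 0.0064), 1 of 16 prostaglandin and leukotriene genes. Angptl4, an inhibitor of lipoprotein lipase that hypoxia and fasting induce, fell by 3.02 (SE 0.46, adjusted p = 3.8e-04), with 4.53 to 5.53 on day 28, against 6.70 to 9.90 on day 23.

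Epithelial genes that fell were few. Krt90, a keratin gene, had 5.40, 4.73, 2.32, 4.42 and 4.10 on day 28, against 11.29, 7.86, 8.38, 7.95 and 10.30 on day 23 (-4.96, SE 0.91, adjusted p = 0.0028). The tight junction gene Cldn4 had 10.06, 9.38, 9.75, 9.92 and 10.42 on day 28, against 13.05, 10.82, 11.24, 11.42 and 11.73 on day 23 (-1.75, SE 0.29, adjusted p = 0.0012), and it was the 1 gene called of 16 of tight junctions. Cldn10, a claudin of ion-selective junctions outside that list, fell by 1.95 (SE 0.24, adjusted p = 3.6e-05). Clusterin (Clu), a secreted chaperone that marks regenerating crypts, fell by 1.73 (adjusted p = 0.0013), 1 of 13 genes of crypt stem cells and regeneration. Dmbt1, a mucosal scavenger protein, fell by 0.75 (adjusted p = 0.023), which with Reg3b made 2 of 16 genes of epithelial defence. Of these 2, 1 kept its call without mouse 1 of day 23 and 0 without mice 1 and 3.

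Hormones of the L cells of the distal gut gave small but tight falls. Proglucagon (Gcg), the precursor of GLP-1, had 10.43, 10.18, 10.41, 10.21 and 10.28 on day 28, against 12.08, 11.47, 11.71, 11.77 and 12.02 on day 23 (-1.51, SE 0.19, adjusted p = 3.6e-05). Peptide YY (Pyy), from the same cells, had 12.49, 12.65, 12.60, 12.55 and 12.30 on day 28, against 13.57, 13.32, 13.38, 13.52 and 13.31 on day 23 (-0.90, SE 0.11, adjusted p = 3.6e-05). The mice of each day agreed closely, and both calls held without mice 1 and 3. Of 14 enteroendocrine genes these 2 were called, and the median was -0.34. The hormone gene secretin (Sct), outside this list, was also called lower. Gcg was also below its level in healthy mice on day 28 (-1.20, adjusted p = 0.0011), while its difference from them on day 23 did not pass (0.31, adjusted p = 0.41).

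**Figure D2:**
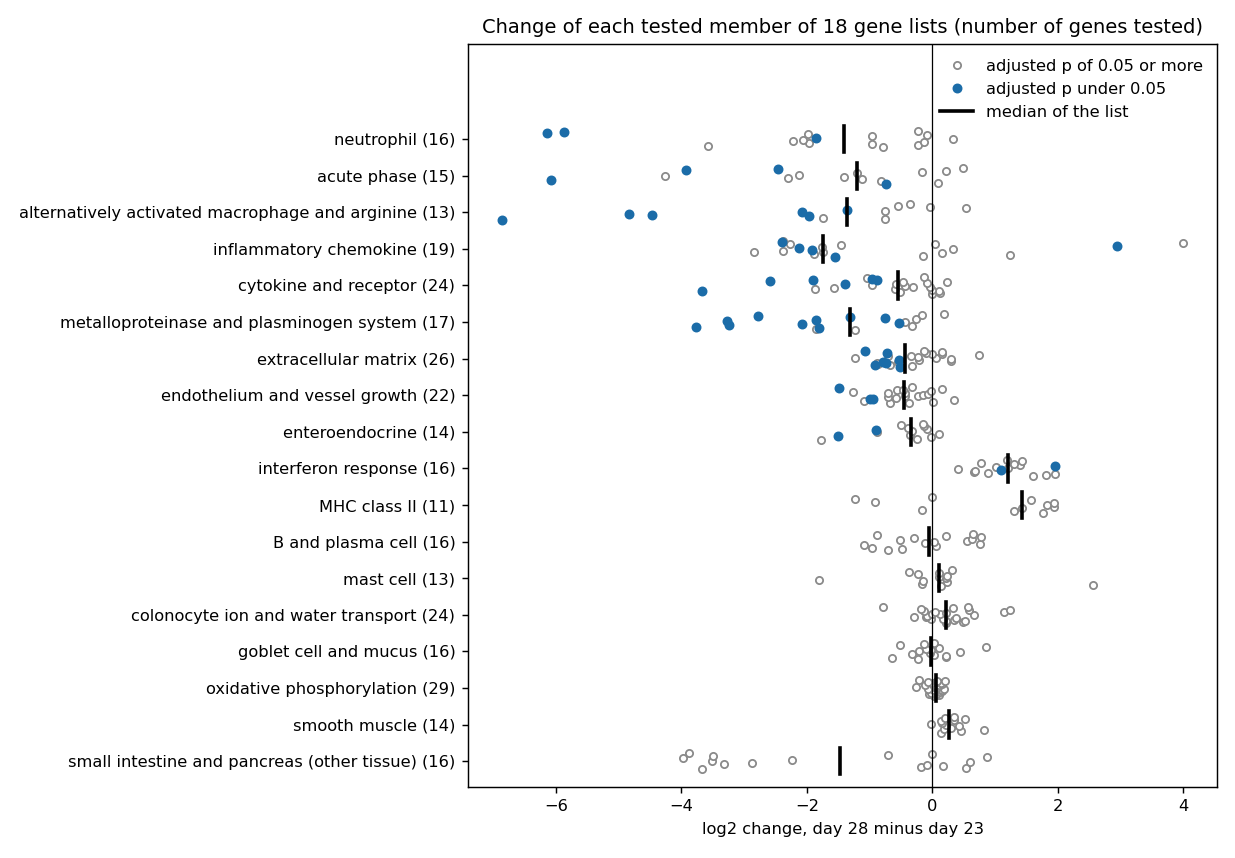
Log2 difference, day 28 minus day 23, of each tested gene in 18 of the 44 lists, with genes at an adjusted p under 0.05 filled, other genes open and the list median as a black bar. The metalloproteinase list has 10 filled points, all to the left of 0, while all 16 interferon genes lie to the right of 0 with 2 filled.

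Among the genes higher on day 28, several belong to the interferon response and to antigen presentation. Cxcl10, a chemokine for T cells that interferon induces, had 8.09, 7.74, 7.44, 7.71 and 8.99 on day 28, against 4.94, 2.32, 4.12, 6.68 and 7.22 on day 23 (2.94, SE 0.77, adjusted p = 0.047). Oas1a, a sensor of double-stranded RNA, had 5.62, 5.56, 5.40, 5.26 and 5.60 on day 28, against 3.41, 2.32, 2.68, 4.98 and 4.25 on day 23 (1.96, SE 0.47, adjusted p = 0.029). H2-T23, a nonclassical MHC class I gene, had 12.82, 12.35, 12.49, 12.42 and 12.68 on day 28, against 11, 11.11, 10.76, 11.84 and 12.09 on day 23 (1.19, SE 0.27, adjusted p = 0.018). In all 3 genes every day 28 mouse was above every day 23 mouse, and mice 4 and 5 of day 23 were nearer to day 28 than mice 1, 2 and 3 were. Irf7, a transcription factor of the interferon response, rose by 1.10 (adjusted p = 0.049), the immunoproteasome genes Psmb8 and Psme2 by 2.08 (adjusted p = 0.049) and 0.67 (adjusted p = 0.015), and Ifi27l2b, an interferon-inducible gene, by 0.85 (adjusted p = 0.017). Since H2 genes have near-identical copies, probes may read more than 1 of them.

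Of the 16 genes of the interferon list, 2 were higher and 0 lower and the median was 1.2. All 16 differences were positive, beside 7558 of all 14010 genes. In 11 of the 16, mice 4 and 5 of day 23 were both above mice 1, 2 and 3. That order held in 8 of 11 MHC class II genes and 5 of 16 B and plasma cell genes, and was not counted over all genes. The mean signal of the list was 8.41 to 8.98 on day 28, 6.80 to 7.27 in mice 1 to 3 of day 23 and 8.22 and 8.35 in mice 4 and 5, and 7.54 to 8.27 in healthy mice. Without mouse 1 of day 23 the list had 2 calls and a median of 1.17, and without mice 1 and 3 it had 0 and 0.96. Cxcl9, another interferon-induced chemokine, was 9.75 to 11.15 on day 28, against 3.23 to 10.36 on day 23, and did not pass (4.00, adjusted p = 0.07). Against healthy mice, 0 of the 16 genes were called on either day, with list medians of 0.86 on day 28 and -0.41 on day 23.

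The interferon-response element was searched in the same promoters, on either strand, as GAAA followed after any 2 bases by a second GAAA, and was in 1131 of all 32851 (3.44%). Of the 16 genes of the list, 13 had a promoter and 6 had a match in any of theirs. Among the 2 called genes, both of which had a promoter, 1 matched (Oas1a), and among 11 genes with a promoter that were not called, 5 did. Of 5 genes outside the list that were searched, Cxcl10 and H2-T23 matched and Cxcl9, Psmb8 and Psme2 did not. A window of 100 bases around the match, in capitals, is shown for the 3 called genes with a match, on the strand of each gene. In Oas1a the window ends at the start, and a pair of overlapping matches begins 20 and 14 bases before it. In Cxcl10 the match begins 213 bases and in H2-T23, on the opposite strand, 124 bases before the start.
Cxcl10 (chr5:92349040-92349139, minus strand): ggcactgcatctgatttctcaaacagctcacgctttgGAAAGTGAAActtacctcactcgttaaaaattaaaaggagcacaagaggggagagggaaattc
Oas1a (chr5:120907526-120907625, minus strand): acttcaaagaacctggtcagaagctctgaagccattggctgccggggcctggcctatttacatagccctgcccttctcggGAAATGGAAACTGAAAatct
H2-T23 (chr17:36032752-36032851, minus strand): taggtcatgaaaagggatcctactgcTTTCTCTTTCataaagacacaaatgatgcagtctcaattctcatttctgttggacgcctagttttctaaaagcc

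**Figure D3:**
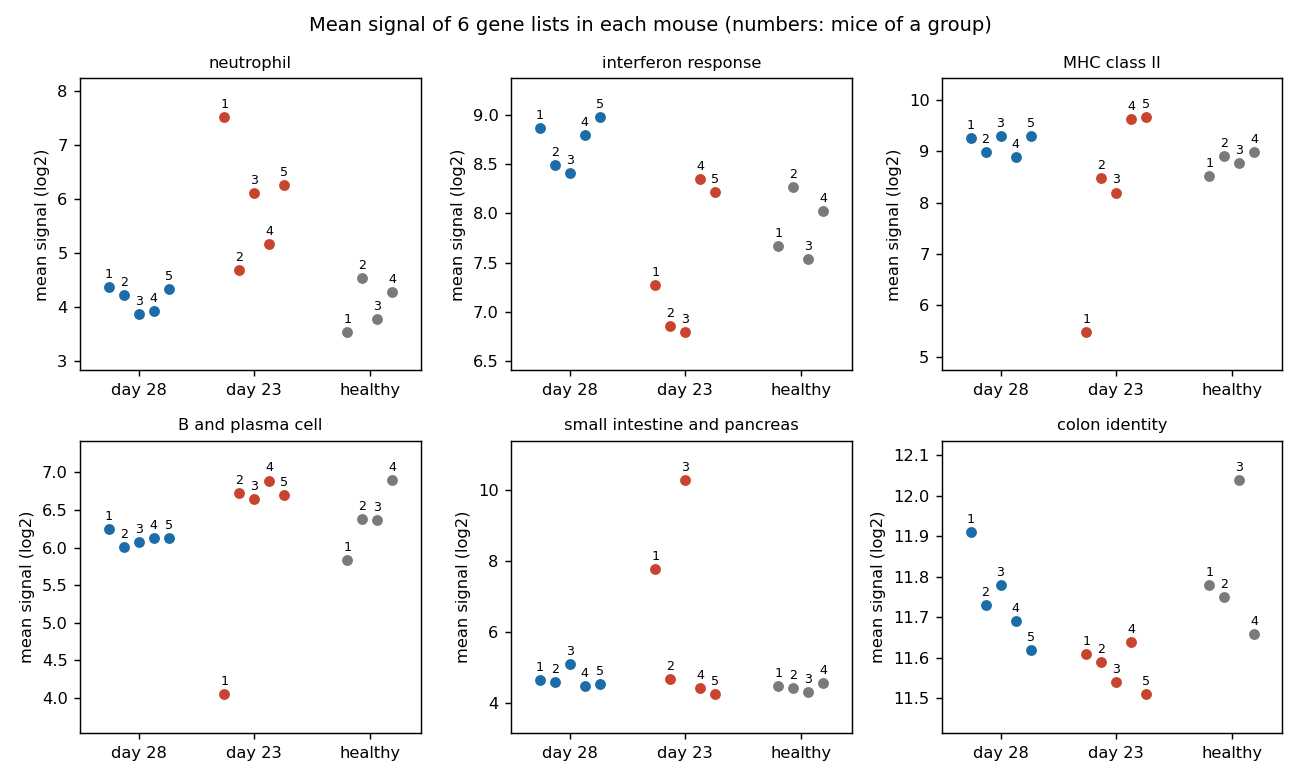
Mean signal (log2) of the tested genes of 6 lists in each mouse, numbered within its group, for day 28 in blue, day 23 in red and healthy mice in grey. Mouse 1 of day 23 stands below all others for MHC class II (5.49) and B and plasma cells (4.05) and highest for neutrophils (7.51), and mice 1 to 3 of day 23 are the 3 lowest for the interferon list.

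MHC class II and B cell genes depended on 1 mouse. Of 11 MHC class II genes, 0 were called, with a median of 1.43, and mouse 1 of day 23 was the lowest of the 10 mice in all 11. The invariant chain Cd74 was 14.45, 14.30, 14.12, 14.02 and 14.45 on day 28, against 9.45, 12.66, 12.25, 13.96 and 14.18 on day 23 (1.77, adjusted p = 0.21). Without mouse 1 the list median was 0.73, and its members split: H2-DMb2 and H2-Oa, chains of the molecules that control peptide loading, were called lower, at -2.01 (adjusted p = 0.02) and -2.06 (adjusted p = 0.0089), while Cd74 was at 1.00 (adjusted p = 0.47). The B cell receptor chain Cd79b had 8.01, 7.48, 7.86, 7.45 and 7.95 on day 28, against 5.10, 9.74, 9.46, 9.57 and 9.72 on day 23 (-0.97, adjusted p = 0.54). Its partner Cd79a had 7.08, 6.79, 6.93, 7.14 and 7.49 on day 28, against 3.41, 8.59, 8.50, 8.56 and 8.84 on day 23 (-0.49, adjusted p = 0.84). Apart from mouse 1, every day 23 mouse was above every day 28 mouse for both chains. Without it the differences were -1.87 (adjusted p = 0.0069) for Cd79b and -1.54 (adjusted p = 0.027) for Cd79a, and the list of 16 B and plasma cell genes had 2 lower, 0 higher and a median of -0.66, against 0, 0 and -0.05 with all mice. Without mice 1 and 3, the MHC class II list had 2 lower genes and a median of 0.40. The B and plasma cell list then had 1 lower gene and a median of -0.80. The part of mouse 1's low lymphoid signal in these results was not tested beyond leaving it out.

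Other genes higher on day 28 were on none of the lists. Hamp2, a hepcidin gene, had 9.38, 9.16, 9.47, 9.89 and 9.33 on day 28, against 3.36, 7.07, 8.65, 7.54 and 5.26 on day 23 (3.07, SE 0.58, adjusted p = 0.0039). Day 28 values were even and above all of day 23, which spread over more than 5 log2 units. Upp1, uridine phosphorylase, had 14.14, 13.33, 13.37, 13.48 and 14.10 on day 28, against 11.02, 10.59, 10.86, 13.14 and 13.10 on day 23 (1.94, SE 0.51, adjusted p = 0.047), with mice 4 and 5 again near day 28. Its other probes gave 2.14 (adjusted p = 0.051) and 2.26 (adjusted p = 0.057). Tppp3, a tubulin-binding protein, rose by 1.56 (adjusted p = 0.023), the carboxylesterase Ces2g by 0.90 (adjusted p = 0.025), the desaturase Fads2 by 0.83 (adjusted p = 0.012), the glucose transporter Slc5a1 by 0.50 (adjusted p = 0.0095), and Ramp1, a subunit of the receptor for the neuropeptide CGRP, by 0.76 (adjusted p = 0.049). Nat8f4 and Gm1123 rose by 1.22 (adjusted p = 0.0095) and 1.15 (adjusted p = 0.018).

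The largest called rise was in Defa20, an alpha-defensin gene. Alpha-defensins are antimicrobial peptides of the Paneth cells of the small intestine. Defa20 had 9.92, 8.36, 8.71, 9.57 and 8.83 on day 28, against 5.81, 6.02, 4.64, 4.13 and 4.43 on day 23, and was at the floor in all 4 healthy mice (4.07, SE 1.00, adjusted p = 0.033). Defa26 had 6.42, 5.43, 5.78, 6.54 and 4.76 on day 28, against 2.32, 4.06, 2.87, 2.70 and 2.32 on day 23, was above background in 4 day 28 mice and 0 day 23 mice, and was at least 2.23-fold higher (2.93, SE 0.73, adjusted p = 0.036). These were 2 of the 4 genes of the alpha-defensin list tested. The other 2, Defa21 and Defa22, did not pass (-0.51, adjusted p = 0.73, and 0.15, adjusted p = 0.95) and were above background in 0 of the 10 mice. Without mouse 1 of day 23, 1 of the list was called, and without mice 1 and 3, 0. Outside the list, Defa31 and AY761185 did not pass either (-0.23, adjusted p = 0.95, and -0.27, adjusted p = 0.94). A second probe of Defa20 was at 0.24, above background in 0 of the 10 mice. Alpha-defensin genes are near-identical copies, so which of them a probe read is uncertain. The mean of the small intestine and pancreas genes was 4.47 to 4.64 in 4 of the 5 day 28 mice and 5.08 in mouse 3, and 4.30 to 4.57 in healthy mice.

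**Figure D4:**
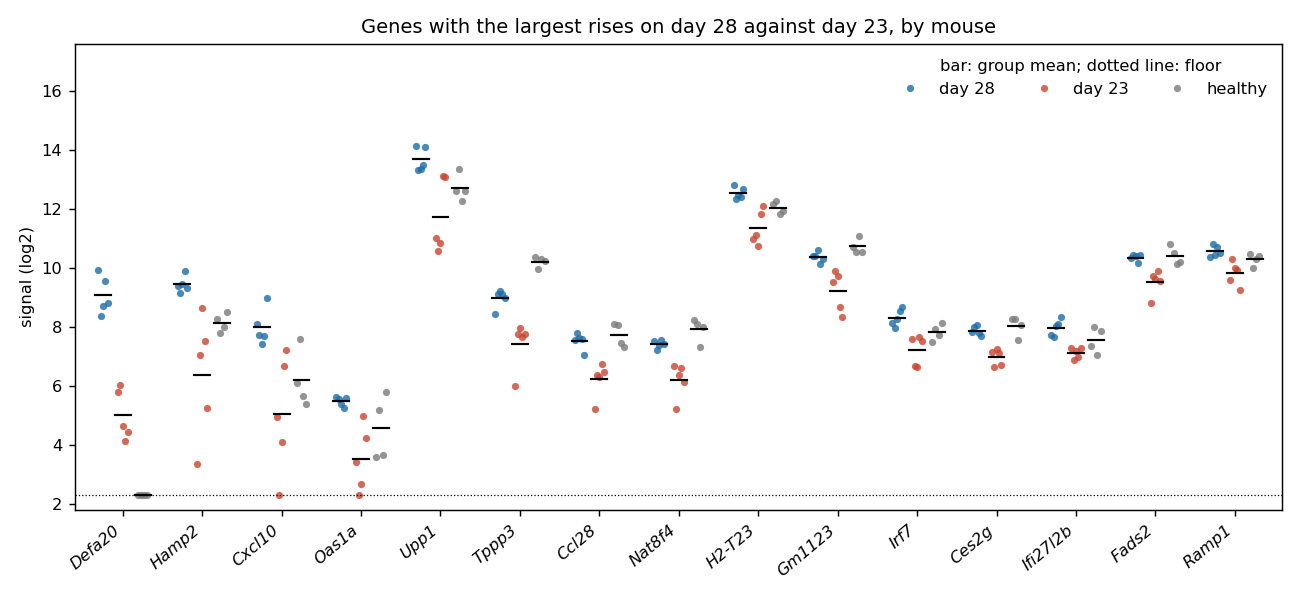
Signal (log2) of the 15 genes with the largest rises among called genes whose days did not overlap and that were above background in every day 28 mouse, 1 point per mouse, with day 28 in blue, day 23 in red and healthy mice in grey, bars at the group means and a dotted line at the floor. By that choice all 5 day 28 points lie above all 5 day 23 points, and Defa20 is at the floor of 2.32 in the 4 healthy mice.

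Many lists held no called gene. These were T cells and intraepithelial lymphocytes, eosinophils, ligands of the EGF receptor, ion and water transport and differentiation of colonocytes, goblet cells and mucus, endoplasmic reticulum stress, cholesterol synthesis, xenobiotic metabolism, oxidative phosphorylation, DNA replication, the Wnt pathway, the circadian clock, smooth muscle, enteric neurons and glia, and skeletal muscle, squamous epithelium and fat as other tissues. Their medians lay between -0.35 and 0.29. The list of small intestine and pancreas genes also had 0 called of 16. Its median was -1.47, and it was -1.18 without mouse 1 of day 23 and 0.19 without mice 1 and 3. All 18 cholesterol genes had positive differences, beside 7558 of all 14010 genes. Their median was 0.24, and it was 0.03 without mice 1 and 3 of day 23. Some of the lists gained calls, all higher, without mouse 1 and without mice 1 and 3. Colonocyte ion and water transport had 1 and 2, ligands of the EGF receptor 1 and 1, and xenobiotic metabolism 1 and 0. The smooth muscle median of 0.26 became 0.11 and 0.06. A p that misses the threshold does not show that values were equal. For Zg16, a goblet cell lectin, the 95% interval of the difference was -0.14 to 0.19, and for the water channel Aqp8 it was 0.15 to 0.9.

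Genes above healthy levels on both days included those of mast cells and of some goblet and crypt cell products. The mast cell protease Mcpt1 had 11.59, 9.58, 11.96, 11.50 and 12.09 on day 28, against 8.25, 12.58, 10.45, 11.91 and 12.99 on day 23, and 2.32 to 5.34 in healthy mice. The days overlapped fully (0.11, adjusted p = 0.99). Against healthy mice, Mcpt1 differed by 7.87 on day 28 (adjusted p = 4.1e-07), and by 7.76 on day 23 (adjusted p = 2.8e-07). Carboxypeptidase A3 (Cpa3), stored in mast cell granules, had 8.10 to 10.48 on day 28, against 7.51 to 11.26 on day 23, and 3.80 to 4.55 in healthy mice. Cma2, a mast cell chymase gene, was 7.25 to 10.41 on day 28, 4.27 to 8.25 on day 23 and at the floor in healthy mice, and did not pass between the days (2.56, adjusted p = 0.072). Of 13 mast cell genes, 0 were called between the days, with a median of 0.11 that was -0.41 without mouse 1 of day 23 and -0.55 without mice 1 and 3. The mean of the list was 5.53 in mouse 1 of day 23 and 6.66 to 8.11 in the other mice of that day, against 3.77 to 4.05 in healthy mice. Ang4, an antimicrobial ribonuclease of crypt cells, was 14.26 to 14.96 on day 28, against 8.81 in mouse 1 and 14.45 to 15.02 in the other mice of day 23, and 7.55 to 10.19 in healthy mice. Retnlb, a goblet cell cytokine, was 14.24 to 15.07 on day 28, 13.88 to 15.26 on day 23 and 10.48 to 13.10 in healthy mice.

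Set against healthy mice, day 28 had 152 called probes (0.72%) above them and 113 (0.535%) below, and day 23 had 737 (3.49%) above and 742 (3.51%) below. These comparisons share the arrays of days 28 and 23 with the comparison above. Of the 178 genes that fell, the day 28 mean was nearer to the healthy mean than the day 23 mean in 157 and lay within the range of the healthy mice in 98. These genes were chosen with day 23 above day 28, which favours nearness, and over all 6339 genes with a lower mean on day 28 the shares were 57.5% nearer and 66.9% within the range. On day 28, 0 of them were called higher than healthy and 5 lower, Gcg, Tenm4, Ngfr, Arl11 and secretin (Sct). Of the 55 genes that rose, the day 28 mean was nearer in 43 and within the healthy range in 23, beside 57.2% and 62.8% of all 7490 genes with a higher mean on day 28. On day 28, 6 of these were called higher than healthy, among them Defa20 (6.76, adjusted p = 7e-04) and Defa26 (3.46, adjusted p = 0.019), and 1 lower, Slc5a1 (-0.47, adjusted p = 0.03). Arg1 on day 28 was at 3.90 to 5.04, with all 4 healthy mice at the floor (1.94, adjusted p = 0.36).

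The same step from 2 to 7 days after an instillation was measured after the first and second instillations, in other mice. After the first, 40 probes (0.189%) were higher on day 14 than on day 9 and 115 (0.545%) lower. After the second, 122 (0.578%) were higher on day 21 than on day 16 and 133 (0.63%) lower. Of the 232 probes that fell after the third instillation, 52 also fell after the first, which is 22.4% of the 232 and 45.2% of the 115. After the second, 20 of them fell, which is 8.62% of the 232 and 15% of the 133. Of the 76 that rose, 4 also rose after the first (5.26% of the 76 and 10% of the 40) and 8 after the second (10.5% of the 76 and 6.56% of the 122). Differences of the third step correlated with those of the first at r = 0.275 and of the second at r = 0.0952 across 21110 probes. No array is shared between the steps, and probes, all read on the same arrays within a step, are not independent replicates. Some day 21 arrays stood apart too. In mice 2 and 3 of day 21 the mean of the small intestine and pancreas genes was 9.83 and 8.56, against 4.64 to 4.65 in the others of that day. The mean of the neutrophil list was 6.63 in mouse 3 of day 21, against 3.64 to 3.89 in the others. The part of these arrays in the values of the second step was not tested.

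Probes called in the same direction after all 3 instillations were few. Lower each time were 8, of Arg1, Chil1, Serpina3n, Ccl7, Ccl9, the alkaline phosphatase Alpl, the annexin Anxa8 and the complement regulator Cd55, and higher each time was 1, of Ramp1. Arg1 fell by 6.89 (adjusted p = 2.4e-05) after the first, by 4.98 (adjusted p = 0.0052) after the second and by 6.86 after the third instillation. Ccl9 fell by 1.85 (adjusted p = 2.9e-04), 1.15 (adjusted p = 0.031) and 2.13. Ramp1 rose by 0.92 (adjusted p = 0.018), 0.92 (adjusted p = 0.02) and 0.76. Reg3b fell by 6.33 (adjusted p = 0.018) after the first and had a difference of -1.68 (adjusted p = 0.63) after the second.

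**Figure D5:**
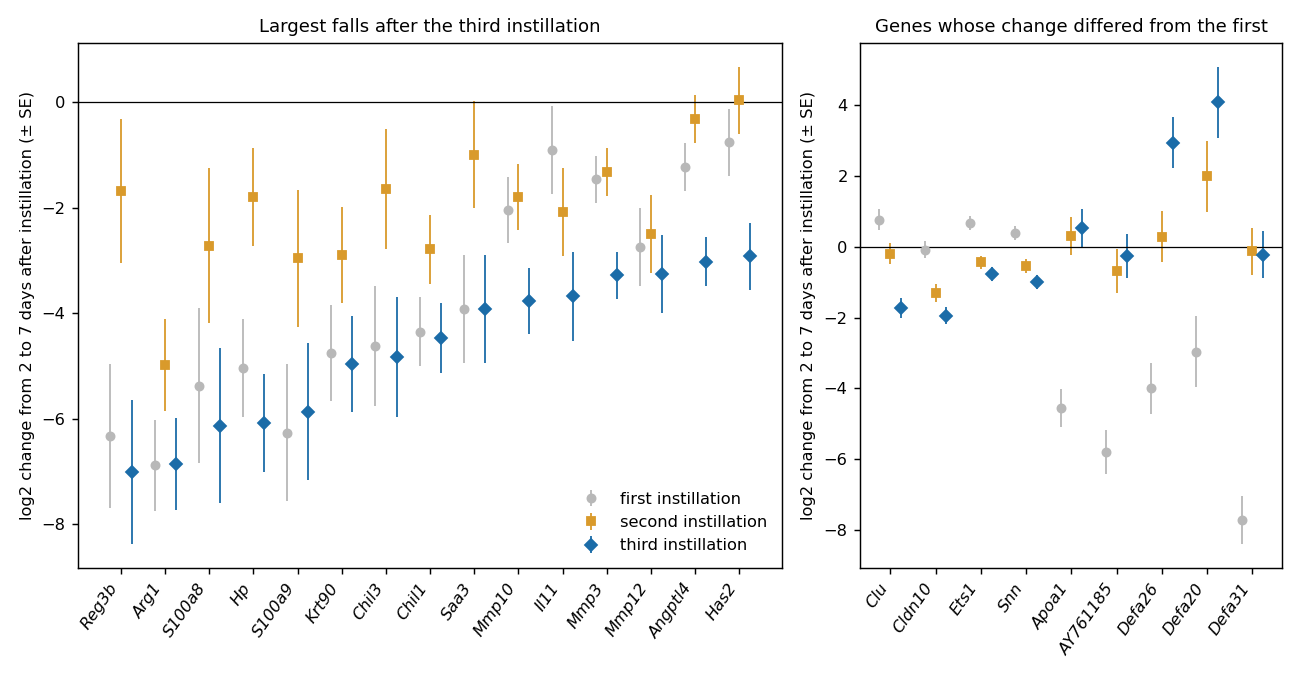
Log2 change from 2 to 7 days after the first (grey circles), the second (orange squares) and the third (blue diamonds) instillation, with standard errors, for the 15 genes with the largest falls after the third (left) and the 9 genes whose change differed from that after the first (right). Arg1 lies at -6.89, -4.98 and -6.86, and Clu at 0.76, -0.20 and -1.73.

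The differences between steps were tested as interaction terms. The change after the third instillation differed from that after the first for 17 probes (0.0805%), 11 higher and 6 lower, 9 genes of which are named here, and from that after the second for 1 probe (0.00474%), that of Dpysl3. Clu differed by -2.48 (SE 0.42, adjusted p = 0.0042), since it fell by 1.73 after the third and had a change of 0.76 (adjusted p = 0.27) after the first. Cldn10 differed by -1.87 (SE 0.34, adjusted p = 0.013), with -0.09 after the first instillation. The transcription factor Ets1, of lymphocytes and endothelium, differed by -1.43 (SE 0.27, adjusted p = 0.023) and Snn by -1.40 (SE 0.29, adjusted p = 0.049). Other probes of Ets1, above background in at most 1 of the 10 mice, gave -0.07 and 0.94 for day 28 minus day 23.

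The other 5 named genes were the alpha-defensins Defa31 (7.48, SE 0.95, adjusted p = 7.6e-05), Defa20 (7.03, SE 1.42, adjusted p = 0.037), Defa26 (6.93, SE 1.04, adjusted p = 8.6e-04) and AY761185 (5.54, SE 0.88, adjusted p = 0.0023), and the apolipoprotein gene Apoa1 (5.08, SE 0.76, adjusted p = 8.6e-04), which enterocytes of the small intestine express. Group means of Defa26 were 5.79 on day 28 and 2.86 on day 23, 3.14 on day 14 and 7.14 on day 9, and the only probe called in opposite directions after the third and the first instillation was its own. Defa31, AY761185 and Apoa1 fell after the first instillation, by 7.71, 5.80 and 4.55, and did not pass after the third. Defa31 averaged 2.48 on day 14 and 10.19 on day 9, AY761185 2.32 on day 14 and 8.12 on day 9, and Apoa1 2.45 on day 14 and 6.99 on day 9. The mean of the small intestine and pancreas list, which includes Apoa1, was 4.28 to 4.67 on day 14 and 4.46 to 5.52 on day 9, and its part in these differences was not tested. Mice 2, 3 and 5 of day 9 and mouse 5 of day 21 also carried skeletal muscle genes, and without these 4 arrays 39 probes differed from the first step. Mouse 5 of day 14, which was kept, had a skeletal muscle mean of 7.24, against 4.09 to 4.54 in healthy mice. The mean of squamous epithelium genes was 7.36 and 9.45 in mice 4 and 5 of day 9 and 9.05 in mouse 4 of day 14. In healthy mice it was 4.18 to 4.57. The part of the squamous genes in these differences was not tested. The count of the third step against the first turned on mouse 1 of day 23. Without it, 130 probes differed, 29 higher and 101 lower, with 7 of 16 B and plasma cell genes lower and a median of -2.40 for that list. With all mice, 0 were called and the median was -1.85.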

How the data were processed

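RNA of the distal colon was measured on Illumina MouseRef-8 bead arrays, 1 array per mouse. According to the methods, the authors subtracted background, quantile normalized the signals and set a floor of 5. The deposited log2 values nevertheless hold all 25697 probes, reach below that floor and have array medians of 4.77 to 4.78. That they are on the log2 scale was inferred from the values. Here values were floored at log2 of 5, and 21110 probes above it in at least 4 of the 34 arrays were tested.

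Groups came from the sample labels. All 34 arrays in 7 groups were fitted with limma (version 3.58.1, R 4.3.3) by lmFit and eBayes, with 27 residual degrees of freedom, and p-values were adjusted by Benjamini-Hochberg within each comparison. The labels do not say more of the mice of a group than their number, and the p-values measure the spread between these arrays. A gene was represented by its brightest probe over all arrays. The platform annotation gave 1 symbol for 23978 probes and none for 1719. Detection p-values and raw signals stand in 68 columns that the labels tie to no mouse, and these were not used.

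The comparison, the 44 gene lists (847 symbols, 699 of them tested) and the named genes were chosen with earlier results of these data known. Named genes were, per direction, the 15 called genes with the largest change whose days did not overlap and that exceeded background on every array of the brighter day, up to 4 called genes per list and direction, up to 5 genes per direction for each difference between steps, and list members described without a call. Trem2, Lrg1, Psmb8, Psme2, Slc5a1, Alpl, Anxa8, Cd55, C1qb, the 5 genes below healthy levels and called list members beyond 4 per list were named after their values were seen. The fit was tested on simulated data. Alternatives were the arrays fitted, floor, filter, normalization, array weights, eBayes options, fold threshold, probe summary, replicate block and each array left out. Leaving out mice 1 and 3 of day 23, and the list values without them, were added after seeing the data. Promoter sequences are those of RefSeq (GRCm38.p6). The number of arrays limits the precision.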

Additional observations from a re-analysis of the deposited data

Results flagged for a closer look

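Single mice that stood apart from their group by Dixon's ratio were found in 7 of 76 groups of values tested. Chance flags about 1 in 20 groups, but that rate does not hold for groups with values tied at the floor, so the 7 are not read against it. On day 28, Reg3b was 3.98 in mouse 4 and at the floor of 2.32 in the other mice. Chil1 was 4.56 in mouse 1 of day 28, against 2.32 to 2.82 in the others. Both genes were above background in 0 day 28 mice. The mean of the small intestine and pancreas genes was 5.08 in mouse 3 of day 28, against 4.47 to 4.64 in the others.

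On day 23, all of the mice that stood apart were mouse 1. Its Il11 signal was 10.65, against 6.65 to 7.12 in the other mice of that day. Its Ccl28 signal was 5.21, against 6.32 to 6.76, and its Tppp3 signal was 5.99, against 7.66 to 7.96. The mean of its B and plasma cell genes was 4.05, against 6.64 to 6.89.

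The change after the third instillation differed from that after the first by an interaction term in limma for 9 named genes. The differences, the third minus the first, were -2.48 for Clu, -1.87 for Cldn10, -1.43 for Ets1, -1.40 for Snn, 7.48 for Defa31, 7.03 for Defa20, 6.93 for Defa26, 5.54 for AY761185 and 5.08 for Apoa1. Against the second instillation, Dpysl3 differed by -1.04 (adjusted p = 0.048).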

How the results depend on the processing

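Fitting only the 10 arrays of days 28 and 23 left 24 higher and 96 lower probes. In that fit 45 of the 67 named genes with a call lost it, among them Reg3b, S100a8, S100a9, Chil3, Mmp12, Angptl4, Cldn4, Hamp2, Cxcl10 and H2-T23, and none reversed. Requiring a signal above background in at least 5 of the 10 arrays gave 120 higher probes, with 10 differing from the first step and 10 from the second. Without the 4 arrays with skeletal muscle markers (mice 2, 3 and 5 of day 9 and mouse 5 of day 21), 117 were higher, with 39 and 2 differing. A floor of 20 gave 29 and 10 differing, eBayes with trend and robust options 30 and 15, and array weights 38 and 11. With the replicate block, 78 were higher, 244 lower, 20 differed from the first step and 0 from the second. Same-numbered mice of the 2 days, which are different animals, deviated with correlations of 0.00609 to 0.109. These values cannot tell whether same-numbered arrays were processed together. Without mice 1 and 3 of day 23, 41 were higher and 194 lower.

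Leaving out 1 array at a time gave 34 to 88 higher and 142 to 259 lower probes. Higher counts were 34, 41, 38 and 39 without mice 1, 2, 3 and 5 of day 28 and 46 without mouse 3 of day 23. Lower counts were 142, 149 and 152 without mice 1, 3 and 5 of day 28. Between 11 (without mouse 2 of day 23) and 130 (without mouse 1 of day 23) probes differed from the first step, and 0 to 38 (without mouse 5 of day 23) from the second. The difference of Defa31 ranged from -0.48 to 0.24 with 1 array left out and was 0.14 without mice 1 and 3 of day 23. From the mean of its probes, the log2 change of Ets1 was 0.0327. Of 67 named genes with a call, 15 kept it in all 23 settings. Probes near background have only bounds.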
